A study of Mus musculus with 4 samples.

Results

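The 52 genes described here encode semaphorins, plexins, neuropilins, Slits and Robos, Eph receptors and ephrins, and netrin with its Unc5 receptors, out of 21851 protein-coding genes in the annotation. They were chosen by their peaks in the 4 lists analysed here: the lists with a peak within 1 kb of a transcription start site (TSS), the regions within 50 kb that only one genotype held, and the ranks of those peaks. All values below are therefore descriptions of the lists, and no test was run on them. All 52 had a promoter peak in all 4 lists, as 14494 of the protein-coding genes did, and none lay on chromosome X or Y. With only the 5′ end of each gene used, 49 of the 52 and 13862 of the protein-coding genes had one. Within 50 kb of their TSSs lay 466 of the 80380 regions formed by merging the peaks of the 4 lists.

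Open chromatin was mapped by ATAC-seq, in which a transposase inserts sequencing adapters into accessible DNA, in embryoid bodies on day 4 of differentiation. The cells were mouse embryonic stem cells of the line E14Tg2A, either WT or CTCF-K20R, in which lysine 20 of CTCF, a zinc finger protein that shapes chromatin loops, was changed to arginine by CRISPR/Cas9. Both genotypes had been kept on inactivated mouse embryo fibroblasts with leukemia inhibitory factor and 2i inhibitors, and were then differentiated as hanging drops in serum without the factor. There were 2 libraries per genotype. The sources used here do not state how many edited clones they came from, so clone and genotype cannot be told apart.

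Guidance cues were first studied in growing axons, and the same families steer migrating and sorting cells in the early embryo. Semaphorins act through plexins, with neuropilins as co-receptors for most of the secreted class 3 members. Slits are secreted ligands of Robo receptors, and netrin repels cells and axons that carry Unc5. Ephrins are bound to the cell surface, so that Eph receptors meet them on neighbouring cells, and signals run into both cells.

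Peaks numbered 59783 and 66703 in WT against 51823 and 55832 in K20R. The median fold over background was higher in replicate 2 of both genotypes (5.85 and 6.04) than in replicate 1 (4.68 and 4.73). A peak was therefore described by its percentile within its own list, where 100 is the strongest peak by -log10 p. Of the 466 regions near guidance genes, 366 and 395 had a peak in the WT lists, and 301 and 321 in the K20R lists. Promoters of early mesoderm markers had peaks in all 4 lists for 7 of 7 genes, pluripotency markers for 6 of 6, neuroectoderm markers for 5 of 5, endoderm markers for 5 of 5, fibroblast markers for 5 of 6 and endothelial markers for 2 of 5. Postn and Cdh5 had no promoter peak in any list. With genes without a peak counted as 0, the median percentile of the endoderm markers was 80.2 and 74.3 in WT against 56.5 and 66.0 in K20R, and that of the neuroectoderm markers 75.4 and 70.7 in WT against 58.5 and 62.5 in K20R. For the fibroblast markers, which feeder cells would carry, it was 64.4 and 71.5 in WT against 68.1 and 73.0 in K20R. For the endothelial markers it was 0 and 21.0 in WT against 56.5 and 39.2 in K20R, over 5 genes of which 2, 3, 3 and 4 had a peak in the respective list. The medians of early mesoderm (66.3 to 70.0) and pluripotency markers (75.8 to 80.9) overlapped between the genotypes, but single genes of both lists did not. T, Mixl1, Evx1 and Fgf8 were lower in both K20R libraries than in both WT libraries, Mesp1 and Eomes were higher, and Tbx6 overlapped. Pou5f1, Sox2 and Zfp42 were higher in both K20R libraries, Nanog was lower, and Esrrb and Klf4 overlapped. What part the mix of cells had in the values below was not tested, and in bulk material fewer cells with a site open cannot be told apart from a site less open in each cell.

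The sequence of 7 sites is given first, since the results below return to them. Each is the 201 bp around the strongest summit, in mm10 (RefSeq sequence of GRCm38.p6), plus strand. The first is the strongest of 4 intronic WT-restricted sites of Robo1, and the second the strongest K20R-restricted site, in an Nrp2 intron. The third is the Ntn1 intron site with the largest drop in rank from WT to K20R.
Robo1 intron, chr16:72699440-72699640: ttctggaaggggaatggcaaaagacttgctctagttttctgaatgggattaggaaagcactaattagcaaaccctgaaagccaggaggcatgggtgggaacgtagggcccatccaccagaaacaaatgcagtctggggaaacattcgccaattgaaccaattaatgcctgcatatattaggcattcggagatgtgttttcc
Nrp2 intron, chr1:62722587-62722787: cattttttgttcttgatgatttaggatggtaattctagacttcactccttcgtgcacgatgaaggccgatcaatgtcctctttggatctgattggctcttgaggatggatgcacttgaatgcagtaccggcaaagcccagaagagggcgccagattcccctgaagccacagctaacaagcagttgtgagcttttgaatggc
Ntn1 intron, chr11:68379504-68379704: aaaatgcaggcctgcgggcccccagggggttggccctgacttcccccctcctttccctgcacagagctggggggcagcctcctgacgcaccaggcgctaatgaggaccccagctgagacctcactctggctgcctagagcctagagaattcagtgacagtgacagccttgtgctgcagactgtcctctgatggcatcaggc

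The next 3 are WT-restricted sites that hold the T-box consensus TCACACCT, in capitals, the core bound by T-box transcription factors. The Sema4d site holds it at 2 places.
Plxna2 upstream, chr1:194586715-194586915: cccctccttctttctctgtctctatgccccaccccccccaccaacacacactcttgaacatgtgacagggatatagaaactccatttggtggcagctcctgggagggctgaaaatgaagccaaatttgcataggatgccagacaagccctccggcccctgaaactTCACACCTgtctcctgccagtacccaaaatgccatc
Sema4d upstream, chr13:51815906-51816106: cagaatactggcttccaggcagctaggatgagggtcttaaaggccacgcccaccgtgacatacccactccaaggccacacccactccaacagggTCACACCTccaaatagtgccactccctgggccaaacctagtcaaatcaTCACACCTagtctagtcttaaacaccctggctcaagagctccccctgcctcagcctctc
Plxnd1 intron, chr6:115986777-115986977: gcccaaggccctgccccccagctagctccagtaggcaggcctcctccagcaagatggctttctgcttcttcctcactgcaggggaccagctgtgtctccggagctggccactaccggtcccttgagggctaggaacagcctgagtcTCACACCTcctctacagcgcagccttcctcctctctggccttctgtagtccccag

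The last lies between Efna1 and Efna3 and holds the core CTCF consensus, in capitals, at a site open in all 4 libraries.
Efna3 downstream, chr3:89308224-89308424: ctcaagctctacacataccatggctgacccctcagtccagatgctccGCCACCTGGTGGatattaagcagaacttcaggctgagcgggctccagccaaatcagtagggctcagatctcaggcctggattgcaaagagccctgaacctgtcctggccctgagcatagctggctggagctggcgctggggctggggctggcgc

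The promoters of the guidance genes were open in both genotypes. The median promoter percentile was 82.9 in WT against 82.2 in K20R, while over the 14494 genes with a promoter peak in all lists it was 87.0 and 85.4. The median difference, K20R minus WT, was -1.71 points, and -0.826 over all those genes. The mean percentile was above 90 in both genotypes for 13 genes and below 60 in both for 5, Sema3b, Sema4a, Slit1, Ephb2 and Efna2. In 19 of 52 genes (36.5%) both K20R libraries were below both WT libraries, where 32.2% of all such genes were. In 9 (17.3%) both K20R libraries were above both WT libraries, against 15.8%, and in the other 24 the genotypes overlapped. Both shares of the guidance genes were close to those of all genes. The balance between lower and higher promoters depended on the ranking. With promoter peaks ranked anew among the 14494 genes, 14 were lower and 12 higher, where 23.0% and 23.9% of all genes were. With the lists cut to equal length by keeping their strongest peaks, 11 were lower and 17 higher, against 18.6% and 29.6% of all genes. With ranks by fold, 12 were lower and 14 higher, against 24.7% and 14.2%. Ranked anew, Sema3c, Sema5b, Sema6d, Slit2 and Epha4 no longer had the genotypes apart, and Sema3e, Epha1 and Epha7 were higher in K20R.

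**Figure D1:**
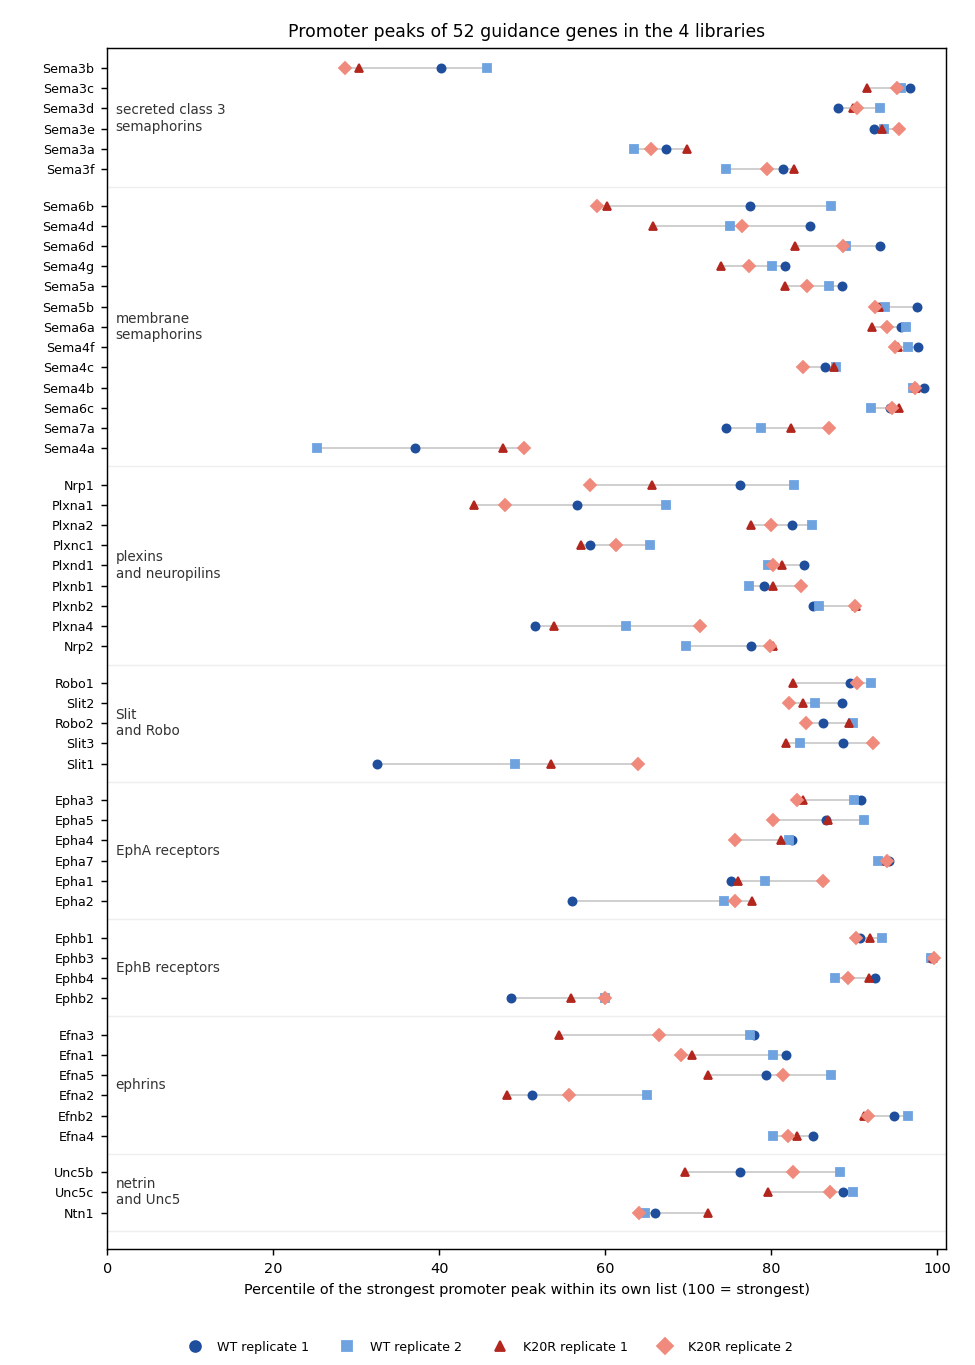
Each row is 1 guidance gene, and the 4 symbols give the percentile of its strongest peak within 1 kb of a TSS in each library (x axis, 0 to 100, 100 strongest), with a grey line from the lowest to the highest. Most rows lie above 60 and the genotypes intermix in 24 rows, while both K20R libraries stand below both WT libraries in 19 rows and above them in 9, a balance that becomes 11 and 17 with lists of equal length.

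The largest difference was at Sema6b, a membrane semaphorin. Its promoter peak stood at the 77.4 and 87.2 percentiles in WT against 60.2 and 59.0 in K20R, so that the genotypes were apart and the mean difference was -22.7 points. With only the 5′ end of the gene used, the values were 51.3 and 78.9 in WT against 60.2 and 52.7 in K20R, and the genotypes overlapped. At the other end Sema4a, which acts on immune and endothelial cells as well as neurons, was at 37.1 and 25.3 in WT against 47.6 and 50.2 in K20R, a difference of 17.7. Ranked anew, the Sema4a difference was 3.32, with the genotypes still apart. These Sema4a peaks lay at internal TSSs, and no list had a peak within 1 kb of the 5′ end of the gene. Sema7a, a semaphorin held in the membrane by a lipid anchor, was higher in K20R too, at 82.3 and 86.9 against 74.6 and 78.8. The promoters of Sema4b (98.4 and 97.1 in WT, 97.4 and 97.3 in K20R) and Sema4f (97.7 and 96.5 in WT, 95.3 and 94.9 in K20R) were among the 3 strongest of the 52. Sema6c was the third membrane semaphorin with a higher promoter in K20R. Sema4f, Sema4g, Sema5a, Sema5b, Sema6a and Sema6d completed the 7 of 13 that were lower, with mean differences from -5.32 to -1.99 for these 6. Of all genes 32.2% were lower and 15.8% higher. Ranked anew, 5 of the 13 were lower and 3 higher, against 23.0% and 23.9% of all genes. At Sema4b, Sema4c and Sema4d the genotypes overlapped.

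Among the 6 secreted class 3 semaphorins, Sema3b was low in all libraries and lower in K20R. It stood at 40.1 and 45.7 in WT against 30.3 and 28.6 in K20R, a mean difference of -13.5, and on equal list lengths the genotypes overlapped. Ranked anew, the Sema3b difference was -1.69, with the genotypes apart. These Sema3b peaks lay at internal TSSs too, with no peak within 1 kb of the 5′ end of the gene in any list. Sema3c was lower too, from 96.7 and 95.6 to 91.5 and 95.1. Sema3a, Sema3d, Sema3e and Sema3f overlapped between the genotypes, with mean differences from -0.43 to 3.18.

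The semaphorin receptors went both ways, with 3 lower and 3 higher of 9, where 32.2% and 15.8% of all genes were. Nrp1, a neuropilin that binds class 3 semaphorins and vascular endothelial growth factor, was at 76.2 and 82.7 in WT against 65.6 and 58.1 in K20R, a mean difference of -17.6. Common regions between 50 kb and 1 Mb from Nrp1 had a median difference of -8.90 over 12 regions, so that its surroundings were lower as well. Over the 19 genes with a lower promoter such medians ran from -19.2 at Slit2 (6 regions) to 9.30 at Plxna2 (17 regions). They were -10.1 at Epha3 (7 regions) and -9.39 at Sema5a (17 regions), and the median over all common regions was -1.52. The Nrp1 paralogue Nrp2 was higher in K20R, at 80.2 and 79.8 against 77.5 and 69.8, a difference of 6.40 with surroundings at 0.57 over 21 regions. Plxna1, a receptor subunit for class 3 semaphorins, was at 56.6 and 67.3 in WT against 44.2 and 48.0 in K20R, a difference of -15.9. Ranked anew, the difference was -6.16 at Plxna1 and -19.7 at Nrp1. Plxnb2, a receptor of class 4 semaphorins, was at 85.0 and 85.7 in WT against 90.1 in both K20R libraries. Plxna2 was the third that was lower and Plxnb1 the third that was higher, while Plxna4, Plxnc1 and Plxnd1 overlapped.

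Of the Slit and Robo genes, Slit1 had the largest gain of the 52 by percentile within the list. It stood at 32.5 and 49.1 in WT against 53.5 and 63.9 in K20R, a mean difference of 17.9. The genotypes were apart, but the replicates of a genotype also lay apart. Ranked anew, the Slit1 gain was 6.13, below that of Sema7a at 22.4. Slit2 was lower in K20R, at 83.8 and 82.1 against 88.5 and 85.3, while Slit3, Robo1 and Robo2 overlapped. The promoter peak of Robo1 was at 89.5 and 92.1 in WT against 82.6 and 90.3 in K20R.

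The ephrins were lower or overlapping, 3 each, where 32.2% of all genes were lower and 15.8% higher. Efna1 was at 81.8 and 80.1 in WT against 70.5 and 69.2 in K20R, a difference of -11.2. Its neighbour Efna3 was at 78.0 and 77.4 in WT against 54.5 and 66.4 in K20R, a difference of -17.2. The WT values rested on peaks more than 500 bp from a TSS, and within 500 bp Efna3 stood at 39.5 and 56.4 in WT against 54.5 and 66.4 in K20R, higher by 12.5 on the mean in K20R. Efnb2, a transmembrane ephrin that marks arteries, was at 94.8 and 96.5 in WT against 91.2 and 91.6 in K20R, with surroundings at -11.9 over 14 regions. Efna2, Efna4 and Efna5 overlapped between the genotypes.

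Among the receptors of the ephrins, Epha2, which is active in early embryonic epithelia, had a higher promoter in K20R. It was at 56.0 and 74.3 in WT against 77.6 and 75.7 in K20R, a difference of 11.5, in which the second WT library lay close to the second K20R library. Epha3 and Epha4 were lower, and Epha1, Epha5 and Epha7 overlapped. Ephb3 had the strongest promoter peak of the 52 at 99.2 in both WT libraries and 99.4 and 99.6 in K20R, higher in K20R by a small margin, and Ephb1, Ephb2 and Ephb4 overlapped. In the netrin group Unc5c was lower, at 79.6 and 87.1 in K20R against 88.6 and 89.8, while Ntn1 and Unc5b overlapped.

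Away from the promoters, more regions were restricted to WT than to K20R, near the guidance genes as over all regions. A region was called WT-restricted where both WT lists and neither K20R list had a peak, and K20R-restricted in the reverse case. Of the 466 regions, 254 were in all 4 lists, 56 (12.0%, Wilson 95% interval 9.37 to 15.3) were WT-restricted, 8 (1.72%, 0.872 to 3.35) were K20R-restricted and 148 had other patterns. Over all 80380 regions 10.4% were WT-restricted and 3.10% K20R-restricted, and over those within 50 kb of any protein-coding TSS 8.76% and 2.97%. The intervals cover counting error only. Since such regions were among the values by which the genes were chosen, the intervals are no test against these shares. The WT lists were longer, and with lists of equal length 43 regions of 407 were WT-restricted and 14 K20R-restricted, against 8.04% and 6.29% of all regions.

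Called peaks had been taken out of the deposited lists, as the gaps in their peak numbers show, so a region without a deposited peak can have had a called one. In both K20R lists the neighbours had consecutive numbers, with no number missing, at 19 of the 56 WT-restricted regions, and the same held in the WT lists at 4 of the 8 K20R-restricted ones. The summit lay in the body of a guidance gene for 32 of the 56 and 5 of the 8, and a guidance gene was the nearest gene for 48 and 5.

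The restricted regions were unevenly spread over the genes. The number of regions per gene ran from 1 to 24 with a median of 9.5, and was highest at Epha2 (24), Efna2 (23) and, with 20 each, Sema3b, Sema4a, Sema4d and Efna4. Plxnd1 and Sema4d had 6 WT-restricted regions each and Robo1 had 4. Sema6a, Slit1 and Epha2 had 3 each, and 30 of the 52 genes had at least 1. K20R-restricted regions were near 7 genes, with 2 at Nrp2 and 1 each at Sema4b, Sema4d, Sema6a, Epha2, Efna2 and Efnb2. The 21 genes with neither kind were Sema3a, Sema3c, Sema3d, Sema3e, Sema3f, Sema4f, Sema6b, Sema6c, Plxna1, Plxna4, Plxnb2, Slit2, Slit3, Robo2, Epha3, Epha5, Epha7, Ephb2, Ephb3, Efna5 and Unc5c. At Sema3c, Sema3d, Slit2, Epha5 and Epha7 the 1 region found was common to all lists. How many of all protein-coding genes had a restricted region within 50 kb was not counted. The numbers of genes, 30, 7 and 21, therefore have no background beside them. By family, where 10.4% of all regions were WT-restricted, membrane semaphorins had 20 such regions of 146, plexins and neuropilins 13 of 74, Slit and Robo genes 7 of 29 and netrin and Unc5 genes 4 of 27. EphA receptors had 6 of 52, ephrins 3 of 59, EphB receptors 2 of 34 and class 3 semaphorins 1 of 45.

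**Figure D2:**
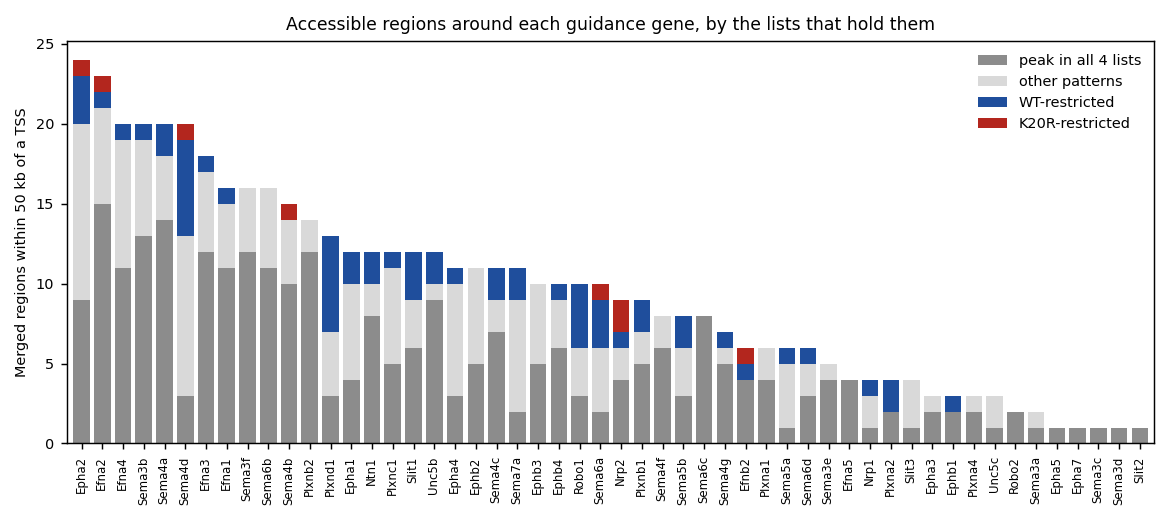
Each bar is 1 guidance gene, and its height is the number of merged regions within 50 kb of its TSSs, split by the lists that hold them. Epha2 has the most regions (24), the blue WT-restricted part is tallest at Plxnd1 and Sema4d (6 each), and the red K20R-restricted part appears at 7 genes.

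Robo1, the receptor through which Slits repel, had a run of intronic WT-restricted sites. Its annotation gives 1 TSS of a protein-coding transcript, at 72663149, although the gene body begins upstream at 72308306. Downstream of that TSS the region chr16:72698935-72699955 stood at the 75.8 and 85.9 percentiles in WT, chr16:72677253-72677882 at 81.8 and 77.6, chr16:72686298-72687144 at 50.7 and 48.0, and chr16:72693265-72694216 at 34.7 and 45.3. None had a deposited peak in either K20R list, although 4 and 1 peak numbers were missing between the neighbours in the K20R lists around all 4 regions. A further intron region 7327 bp from the TSS was in all 4 lists, at 74.7 and 80.0 in WT against 28.5 and 19.2 in K20R. At the promoter itself the genotypes overlapped.

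Plxnd1, a receptor of Sema3e with a role in vessel patterning, had its 6 WT-restricted regions between 38151 bp downstream and 11989 bp upstream of the TSS. The intron region that holds the T-box consensus printed above was the strongest, at 49.8 and 47.4, and an upstream region at chr6:115999147-115999556 stood at 43.8 and 43.9. The other 4 were between 13.7 and 41.2 in the WT libraries. The 2 common distal regions of Plxnd1 overlapped between the genotypes.

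At Sema4d, a ligand of Plxnb1, the strongest of the 6 WT-restricted regions lay in an intron 16416 bp downstream of a TSS, at 67.5 and 76.7. Another, at -40020 bp from the TSS and nearer to Gadd45g, stood at 45.9 and 62.1. The upstream site with 2 T-box matches was weak, at 9.55 and 25.4. The K20R-restricted region of Sema4d was weak as well, at 15.8 and 1.52.

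Strong WT-restricted sites were found at 3 more membrane semaphorins. The strongest of all 56 lay in a Sema6a intron 14484 bp downstream of a TSS, at 82.2 and 87.6. A region at chr3:88422037-88422623, 33380 bp downstream of a Sema4a TSS but in an intron of Slc25a44, stood at 75.0 and 82.0. An intron region of Sema6d at chr2:124617965-124618800 stood at 75.3 and 79.8. At the Sema6a site 4 and 1 peak numbers were missing in the K20R lists, and at the Sema4a and Sema6d sites none.

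The K20R-restricted regions were weaker than these. The intron region of Nrp2 printed above was at 43.2 and 34.2 in K20R, with 1 peak number missing in each WT list. Next was an intergenic region at -42898 bp from a Sema4b TSS, nearest to Idh2, at 47.9 and 26.3 and with no number missing in WT. The third, at -39220 bp from the Efnb2 TSS, was at 18.6 and 27.3. An Epha2 exon region was at 3.66 and 30.2, and a Sema6a intron region at 8.38 and 21.2. The median of the mean percentile was 15.9 over the 8, against 31.3 over the 56 WT-restricted regions. Over all regions of each kind it was 21.9 for K20R-restricted and 30.0 for WT-restricted ones, the same direction.

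**Figure D3:**
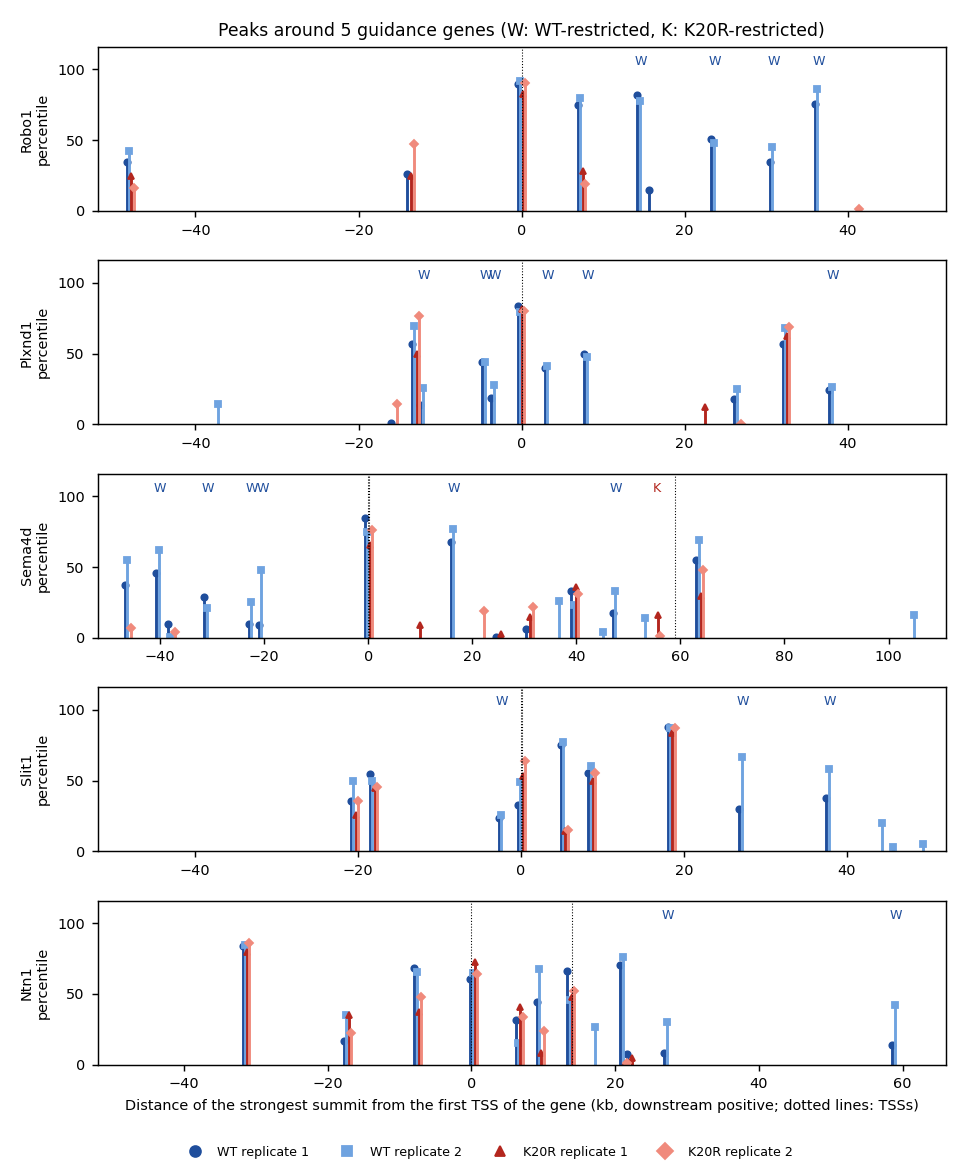
Peaks around Robo1, Plxnd1, Sema4d, Slit1 and Ntn1 are placed by the distance of the strongest summit of the region from the first TSS of the gene (x axis, kb, downstream positive, dotted lines at TSSs), and each stem is the percentile of the region in 1 library (y axis, 0 to 100). The letter W marks a region restricted to WT and K one restricted to K20R, and Robo1 shows 4 W regions downstream of a promoter with stems of all 4 libraries.

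Sites shared by all 4 libraries varied in rank as well. There were 139 common regions within 50 kb that were not within 1 kb of any protein-coding TSS. Both K20R libraries were below both WT libraries at 56 of them (40.3%) and above at 20 (14.4%). Over all 23993 distal common regions, without the 50 kb limit, these shares were 36.3% and 20.0%. Shares limited to regions within 50 kb of any gene were not computed. Ranked anew among the 23993 distal common regions, 46 (33.1%) were lower and 38 (27.3%) higher, against 27.3% and 31.6%. With lists of equal length 39 of 128 were lower and 45 higher, against 25.3% and 34.9%, so that the balance turned. The median difference was -3.79 points, and -2.72 over all distal common regions.

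**Figure D4:**
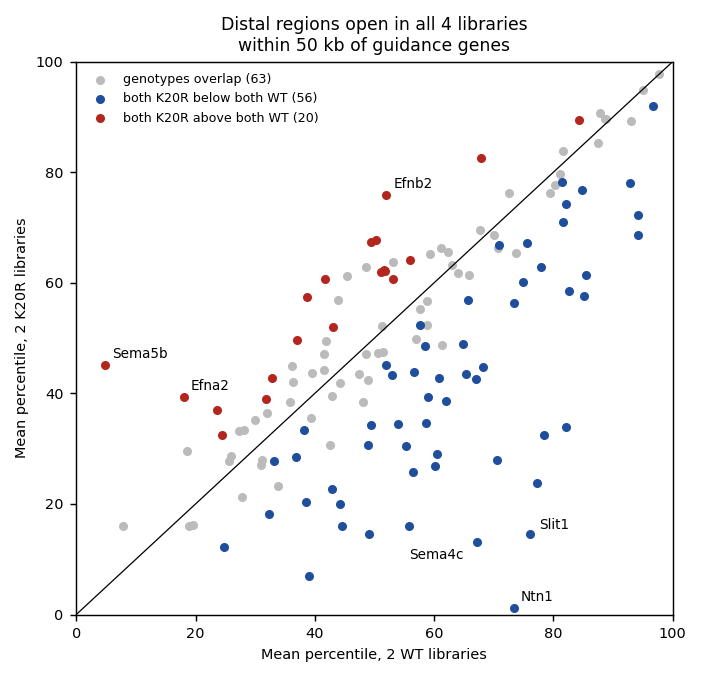
Each point is 1 of the 139 distal common regions, placed by its mean percentile in the 2 WT libraries (x axis) and the 2 K20R libraries (y axis), with the diagonal of equal rank. Blue points (56) have both K20R libraries below both WT libraries, red points (20) above, and Ntn1, Slit1 and Sema4c lie farthest below the diagonal, while lists of equal length gave 39 and 45.

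The largest drop in rank from WT to K20R was in an intron of Ntn1, the gene of the secreted cue netrin 1. The region printed above stood at 70.4 and 76.4 in WT against 0.751 and 1.52 in K20R, near the bottom of both K20R lists. The promoter of Ntn1 overlapped between the genotypes, at 66.0 and 64.8 in WT against 72.4 and 64.0 in K20R. The next was in an intron of Slit1, chr19:41737779-41739146, at 75.3 and 77.0 in WT against 14.0 and 15.1 in K20R, in contrast to the Slit1 promoter, which was higher in K20R. The third lay 31012 bp upstream of Sema4c in an intron of Fam178b, at 69.5 and 65.0 in WT against 17.8 and 8.38 in K20R. At these 3 regions the genotypes lay farther apart than the replicates. Their choice as the largest drops among regions with the genotypes apart favoured this.

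Differences in the other direction were smaller. An intron region of Sema5b, chr16:35553937-35554297, was at 4.64 and 4.85 in WT against 39.7 and 50.7 in K20R. A region in the last part of Efnb2, overlapping an exon, was at 43.8 and 60.1 in WT against 72.0 and 79.8 in K20R, although the Efnb2 promoter was lower. A CpG-rich intergenic region 29534 bp downstream of the Efna2 TSS was at 13.0 and 23.0 in WT against 43.3 and 35.5 in K20R.

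Of all distal common regions 36.3% were lower and 20.0% higher, and the families had few regions each. Slit and Robo genes had 5 lower and 0 higher of 8 distal common regions, and EphB receptors 7 and 2 of 10. Netrin and Unc5 genes had 7 and 2 of 13, ephrins 9 and 3 of 20, plexins and neuropilins 8 and 2 of 19, and class 3 semaphorins 6 and 1 of 19. Membrane semaphorins had 11 and 8 of 38 and EphA receptors 3 and 2 of 12. Ranked anew, where 27.3% of all regions were lower and 31.6% higher, the class 3 semaphorins had 5 and 7, the membrane semaphorins 9 and 13 and the EphA receptors 3 and 5, so that their balance turned. Efna1, Efna3 and Efna4 lie side by side on chromosome 3 and share regions, 16 between Efna3 and Efna4 and 12 between Efna1 and Efna3, so their counts are not independent.

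Regions near the guidance genes were also split by their distance from the TSSs, which was not done for all genes. Within 1 kb of a guidance TSS 63 of 65 regions were common and 0 were restricted. Promoter peaks were among the values by which the genes were chosen, so this count was not free to vary. Between 1 and 10 kb 45 of 105 were common and 19 WT-restricted, and between 10 and 50 kb 146 of 296 were common and 37 WT-restricted. Over all regions, at any distance, 47.9% were common and 10.4% WT-restricted. Of the WT-restricted regions near guidance genes 39 (69.6%) lay in introns, 16 between genes, 1 at a promoter (of Shisa5, near Plxnb1) and 0 in exons, and over all WT-restricted regions 50.6% lay in introns. Just inside the 50 kb limit lay a WT-restricted region near Sema4c, at 49684 bp and at the 14.0 and 9.42 percentiles. Just outside lay a common region near Sema7a, at 50017 bp, with 65.7 and 59.7 in WT against 53.8 and 61.1 in K20R.

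Consensus sequences were searched on both strands within 100 bp of the strongest summit, and a match is a description of the letters and not of binding. The T-box consensus was found at 4 of 56 WT-restricted regions near guidance genes (7.14%, Wilson 95% interval 2.81 to 17.0), those of Plxna2, Plxnd1 and Sema4d printed above and 1 in a Sema6a intron. It was found at 2.89% of all WT-restricted regions, at 1 of 254 common regions near guidance genes and at 1.25% of all regions. The lower bound of the interval was below the share of all WT-restricted regions. The core CTCF consensus was found at 0 of the 56, which allows up to 5.36%, and at 2.58% of all WT-restricted regions. It was found at 12 of the 254 common regions (4.72%), against 7.01% of all common regions and 5.97% of all regions. At the Efna3 site printed above, which holds it, the percentiles were 81.1 and 82.0 in WT against 76.4 and 80.3 in K20R. Of the other common sites with it, one in an exon of Sema4f was higher in K20R, at 53.3 and 61.5 against 35.9 and 41.4, and one in a Plxnb2 intron was lower, at 39.3 and 58.5 against 61.2 and 68.5.

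The GATA consensus AGATAA was at 6 of the 56 (10.7%) and at 14.5% of all WT-restricted regions, 4.33% of the common regions near guidance genes and 7.81% of all regions. The TCF-LEF consensus CTTTGAT was at 2 of the 56 (3.57%), and at 2.68% of all regions. The AP-1 consensus TGANTCA was at 3 of the 56 (5.36%), and at 7.07% of all regions. All 3 shares among the 56 had wide intervals, of which that of AP-1 ran from 1.84 to 14.6%. The median GC content of the 201 bp was 55.2% in the WT-restricted regions near guidance genes and 60.7% in the common ones, against 50.7% and 57.2% over all regions of each kind.

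**Figure D5:**
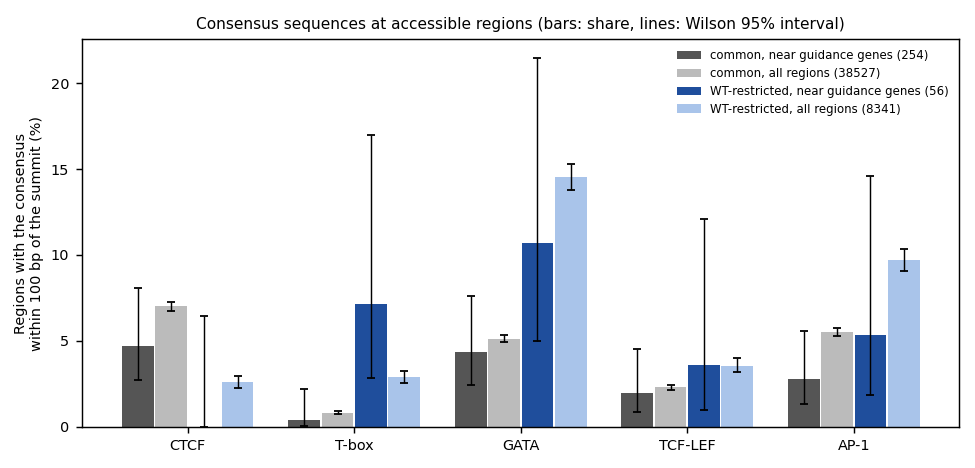
Bars give the share of regions (y axis, %) with each consensus within 100 bp of the summit, for common and WT-restricted regions near guidance genes and over all regions, and lines give Wilson 95% intervals. The T-box bar of the 56 WT-restricted regions (7.14%) stands above that of all WT-restricted regions (2.89%) with an interval that covers it, and the CTCF bar of the 56 is at 0.

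Another 24 guidance genes, from the same families and from related ones such as the netrin receptors Dcc and Neo1, were counted in the same way. Promoter peaks were in all 4 lists for 22 of the 24, and Sema3g and Plxnb3 lacked one in 1 or more lists. Of the 22, 12 (54.5%) were lower in K20R and 3 (13.6%) higher, where 32.2% and 15.8% of all genes were. Ranked anew, 8 (36.4%) were lower and 3 (13.6%) higher, where 23.0% and 23.9% of all genes were. Robo4, an endothelial Robo, was at 50.3 and 57.0 in WT against 25.6 and 20.4 in K20R. Unc5a was the other way, at 73.1 and 81.8 in WT against 87.5 and 83.0 in K20R. Of the 167 regions near these 24 genes, 16 (9.58%) were WT-restricted and 2 (1.20%) K20R-restricted, where 10.4% and 3.10% of all regions were.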

How the data were processed

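ATAC-seq of day 4 embryoid bodies gave 1 narrowPeak list per library, 2 WT and 2 CTCF-K20R, grouped by GEO's labels. The authors trimmed reads (Trim Galore), aligned them to mm10 (Bowtie2), kept reads of high mapping quality, removed duplicates and blacklisted regions, and called peaks per replicate (MACS2). The shift of reads for the transposase is not given in the sources used here. The deposited values were the authors' score, the fold over background (a ratio), the −log10 p-value and the −log10 q-value at the summit. The score was not used. The lists reach a p of 0.01 and hold 51.7% and 50.5% (WT) and 58.6% and 60.8% (K20R) of their peak numbers, so peaks had been taken out by a rule not given in the sources used here.

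From these, percentiles of −log10 p within each list were computed, peaks sharing at least 1 bp were merged, and regions were placed by TSSs of protein-coding transcripts of the GENCODE basic annotation of the same build. Python 3.11.15, pandas 2.3.3, NumPy 2.4.6 and pysam 0.24.0 were used, checked on simulated lists. Depth is known only through the peak counts, since read totals were not used here. The members and lists were chosen with earlier results of these data known. Genotypes were compared by whether both libraries of one lay beyond both of the other, without a test, since the choice of members used these values. With 2 against 2 libraries no exact test could have passed 0.05. The named items were the 6 promoters with the largest losses and the 6 with the largest gains among those with the genotypes apart, the 3 strongest promoters, the 5 strongest restricted regions of each genotype and the 3 such distal regions with the largest losses and gains. The Robo1, Plxnd1, Sema4d and CTCF sites named beside them were picked after their values were seen.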

Additional observations from a re-analysis of the deposited data

How the results depend on the processing

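Counts near the 52 genes depended on thresholds and list length, and the share of all genes or regions under the same setting, given in brackets, moved too. For counts within 10 kb and with no peak number missing, no such share was computed. Lower promoters, 19 as reported (32.2%), were 12 of 45 at a −log10 q of at least 10 (18.2%), 11 with lists of equal length (18.6%), 12 ranked by fold (24.7%), and 24 to 29 with 1 library left out (42.3% to 50.0%). Higher promoters, 9 as reported (15.8%), were 17 with lists of equal length (29.6%), 14 by fold (14.2%), and 12 to 16 with 1 library left out (25.0% to 31.0%). WT-restricted regions, 56 as reported (10.4%), were 23 of 292 at a −log10 q of at least 10 (6.92%), 19 of 170 within 10 kb, 19 with no peak number missing (an alternative chosen after seeing the data), and 64 to 99 with 1 library left out (12.6% to 20.8%), most without WT replicate 1. K20R-restricted regions, 8 as reported (3.10%), were 5 (2.60%), 2 and 4 under those settings, 14 of 407 with lists of equal length (6.29%), and 13 to 28 with 1 library left out (4.44% to 8.05%), most without K20R replicate 1. Lower distal regions, 56 as reported (36.3%), were 24 of 91 at a −log10 q of at least 5 (27.6%), 13 of 48 at 10 (21.4%), 18 of 42 within 10 kb, and 75 to 82 with 1 library left out (42.2% to 52.1%). Higher distal regions, 20 as reported (20.0%), were 6 at 10 (14.0%), 7 within 10 kb, 45 of 128 with lists of equal length (34.9%), 38 ranked anew (31.6%), and 32 to 43 with 1 library left out (25.5% to 37.3%). Leaving out a library raises these counts by construction, since fewer libraries have to be separated.

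As a replicate block, same-numbered libraries were paired and the sign required in both pairs. This gave 24 lower (41.3%) and 15 higher (21.7%) promoters and 69 lower (43.8%) and 31 higher (26.2%) distal regions. Percentile deviations of WT and K20R replicate 1 from their genotype means correlated at r = 0.0532 over 38527 common regions. Percentiles within a list take out a shift of a whole library, so this value cannot decide whether same-numbered libraries formed a block.

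Of 230 values of named promoters and distal regions under the alternatives, 218 kept their direction and call, 8 lost the separation of the genotypes, 1 gained it (Sema4b without WT replicate 2, -1.055) and 3 changed sign. These were Efna3 within 500 bp (12.5) and Sema4b with lists of equal length (0.0569) and without WT replicate 1 (0.294). All named items but Sema4b had the genotypes apart. For such items, leaving out 1 library or pairing replicates reuses the same percentiles, so the outcome was largely fixed in advance. The 218 is therefore no measure of stability. Of the 5 named WT-restricted regions, 2 had no peak number missing in K20R and 1 lay within 10 kb, and all 5 stayed restricted in the other settings. Leaving out a library or using 1 TSS per gene could not end a restriction. A cut by q or list length could do so only by removing the peaks of the region itself. Of the 5 K20R-restricted ones, 2 stayed at a −log10 q of at least 5, 0 at 10, 4 with a larger minimum overlap of peaks and 2 with no number missing, and 1 lay within 10 kb. Apart from these, the cause of each move was not tested.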

Other observations

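Many regions near the guidance genes were held by 1 list only. WT replicate 2 alone held 42 of the 466 (9.01%), WT replicate 1 alone 20 (4.29%), K20R replicate 2 alone 20 (4.29%) and K20R replicate 1 alone 12 (2.58%). Over all 80380 regions these shares were 9.24%, 5.05%, 4.62% and 3.44%, in the same order of the lists.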
